A study of Mus musculus with 3 samples.

Results

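The genes described here are 43 mouse genes that serve the responses of a cell to misfolded protein, to shortage of amino acids and to heat, out of 36403 gene names on the array. They form 3 branches, namely 19 genes of the unfolded protein response of the endoplasmic reticulum (ER), 14 genes of the kinase PERK and the transcription factor ATF4, and 10 genes of the heat-shock response. A member is a non-control probe whose gene name in the scanner output equals the symbol, and a gene with several probes was read from its brightest probe without an outlier flag. All 43 members were well above background on all 3 arrays, so none was lost to a filter on dim signals.

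As background, the ER folds secreted and membrane proteins with the chaperone BiP (Hspa5), and unfolded protein that occupies BiP releases 3 sensors in the ER membrane. IRE1 (Ern1) splices the messenger RNA of Xbp1 and ATF6 (Atf6) is cut to a soluble factor, and both factors drive genes of chaperones and of ER-associated degradation through a promoter motif called the ER stress response element. PERK (Eif2ak3) phosphorylates the translation factor eIF2α, which lowers protein synthesis but favours translation of ATF4, an activator of genes for amino acid synthesis and transport, transfer RNA charging and stress signalling. In the cytosol and nucleus, heat-shock factor HSF1 binds heat shock elements and drives the cytosolic and mitochondrial chaperones. In kidney tubule cells these responses are known from toxic and ischaemic injury. They act partly on splicing, cleavage and translation, and the arrays measured only messenger RNA levels.

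The cells of all 3 groups were mpkDCT cells, a mouse kidney line named for the distal convoluted tubule, with a Cyp27b1 knockout made by CRISPR-Cas9. Cyp27b1 makes calcitriol, 1,25(OH)2D3, from calcidiol, 25(OH)D3, by adding a hydroxyl group, and calcitriol is the stronger ligand of the vitamin D receptor. The cells had spent 24 h in medium free of phenol red that held 2% serum stripped with charcoal. They then received vehicle, calcitriol at 1e-07 M or calcidiol at 1e-07 M for 24 h in the same medium, with 1 array per group. The label of the third array names its compound once as 25(OH)2D3, and its treatment tag, followed here, names 25(OH)D3. The series text calls the cells mDCT once, the titles carry an unexplained tag, siCT, and the sources used here do not say whether the knockout line is 1 clone.

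Of the spots, 51.0%, 49.9% and 49.7% were well above background on the vehicle, calcitriol and calcidiol arrays. Of 7 markers of the distal convoluted tubule, Wnk4 and Egf were well above background on all 3 arrays and Pvalb on some, whereas Slc12a3, Trpm6, Calb1 and Klhl3 were on none. None of the epithelial markers Cdh1, Epcam, Krt8 and Krt18 was well above background. Some markers of other cells were so on all 3 arrays. They were 2 of 4 of the proximal tubule (Lrp2 and Aqp1), 2 of 4 of principal cells and 2 of 4 of fibroblasts. For macrophages it was 2 of 3 and for endothelium 1 of 3. Lrp2 had signals of 1923, 5090 and 3812 with vehicle, calcitriol and calcidiol. The median coefficient of variation of repeated spots was 7.37%, 9.68% and 3.75% in the scanner headers, and that of the calcitriol array was out of the software's range. So was the measure of the spike-in controls on the vehicle and calcitriol arrays, but not on the calcidiol array. The 3 arrays shared 1 slide and 1 scan, each at its own position, so position and treatment cannot be told apart. Each group had a single array, so no spread between replicates exists for any difference and p-values are not reported. Signals are the scanner's processed signals on a linear scale, and differences are log2 differences after each array's 75th percentile was subtracted. The scanner's own technical error of a difference was 0.20 for every member except Hyou1 and Hspa1a, where it was 0.21. It leaves out the variation between cultures.

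Almost all members of the 3 branches stayed close to their vehicle level with either compound. With calcitriol, 0 members were at least 2-fold higher than with vehicle, beside 1.01% of the 16671 genes measured, and 1 member, Hsp90b1, was at least 2-fold lower, beside 1.57% of those genes. With calcidiol, 0 members were at least 2-fold higher, beside 0.858% of 16664 genes, and 0 were at least 2-fold lower, beside 0.144%. Between the compounds, 0 members were at least 2-fold higher with calcitriol than with calcidiol, beside 0.466% of 16517 genes, and Hsp90b1 was again the 1 member at least 2-fold lower, beside 1.37%. At these shares few or no members of a list of this size would be past the threshold, so the counts set the members apart neither way. At 1.5-fold, Hsp90b1 was still the only lower member with calcitriol against vehicle, beside 5.87% of genes, and there was none with calcidiol, beside 1.3%. Between the compounds that bar added 1 gene, Sesn2, beside 5.38% of genes. No member was 1.5-fold higher in any comparison, beside 3.58%, 2.92% and 2.29% of genes. In whole cultures, fewer cells that express a gene and less of its RNA per cell cannot be told apart.

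The sizes of the differences can be set beside those of all genes, which include dimmer probes than the members. The median size over the 43 members was 0.14 with calcitriol, 0.11 with calcidiol and 0.16 between the compounds, where the medians over all genes were 0.18, 0.13 and 0.17. With calcitriol, 28 members lay within 1 scanner error of vehicle and 15 (34.9%) beyond it, beside 42.8% of all genes. With calcidiol, 35 members lay within it and 8 (18.6%) beyond it, beside 28.8% of all genes. Between the compounds, 30 lay within it and 13 (30.2%) beyond it, beside 40.3%.

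**Figure D1:**
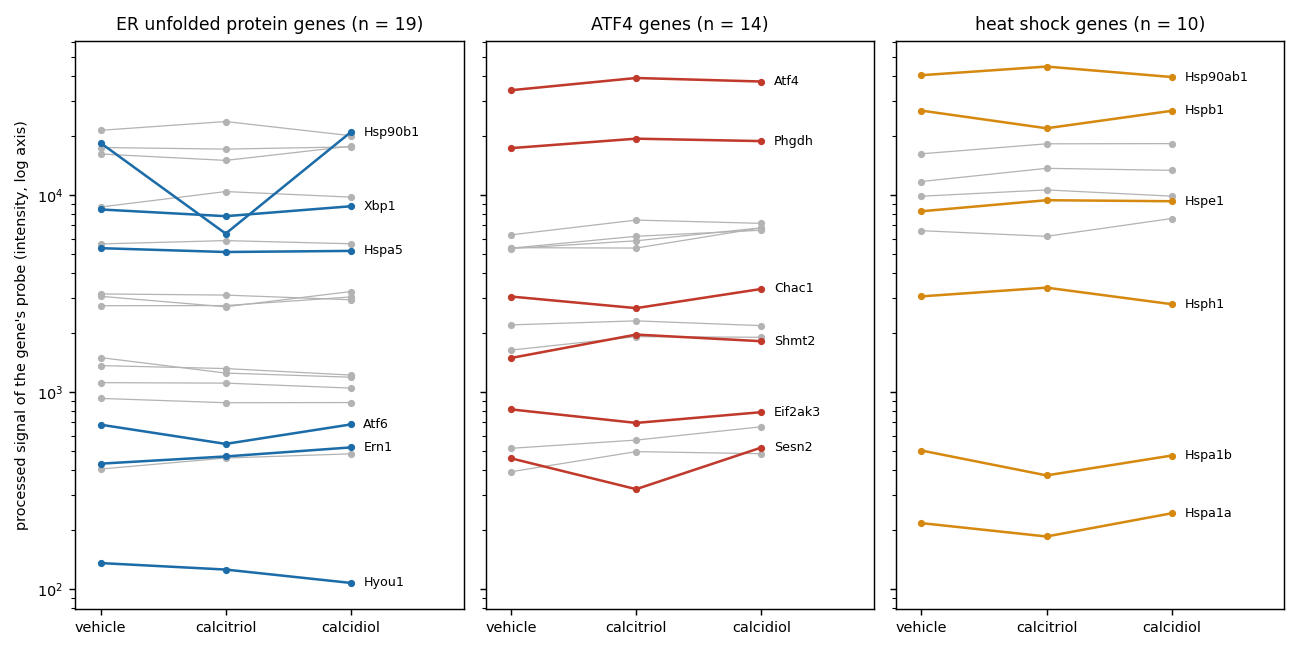
Processed signal (log axis) of the probe of each member on the vehicle, calcitriol and calcidiol arrays, with 1 panel for each branch; a line joins the 3 values of 1 probe, coloured lines are named, and the heights of different probes are not comparable. Most lines are close to flat, and Hsp90b1 drops from 18343 with vehicle to 6358 with calcitriol and stands at 20823 with calcidiol.

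The ER branch leaned slightly below vehicle with both compounds. The median difference of its 19 genes was -0.07 with calcitriol, where that of all genes was 0.01, and 14 of the 19 were below 0, beside 48% of all genes. After centring on the array median in place of the 75th percentile the branch median with calcitriol was 0.05, and that of all genes moved up with it to 0.13. With calcidiol the branch median was -0.10, where that of all genes was -0.0049, and 13 of the 19 were below 0, beside 51.3%. Both comparisons use the same vehicle array, so they are not independent of each other. With calcitriol 15 of the 19 genes, and with calcidiol also 15, lay within 1 scanner error of vehicle. The 4 (21.1%) beyond it each time stood beside 42.8% and 28.8% of all genes.

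Among the sensors, Ern1 had signals of 433 with vehicle, 471 with calcitriol and 523 with calcidiol, differences of 0.10 and 0.17 from vehicle. A second detected Ern1 probe gave -0.41 and -0.14, so its probes disagree on the direction. Atf6 had signals of 682, 545 and 684 in the same order, a difference of -0.34 with calcitriol and -0.10 with calcidiol. It was the second lowest of the branch with calcitriol, at 1.27-fold. Xbp1, the factor that Ern1 splices, had signals of 8432, 7795 and 8753, and differed by -0.13 and -0.05. Its other 2 probes gave -0.06 and -0.14 with calcitriol and -0.08 and -0.10 with calcidiol, so all 3 probes stood within the scanner error of vehicle. Whether any of them separates spliced from unspliced Xbp1 was not examined.

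Hspa5, the chaperone BiP and the usual reference gene of the pathway, had signals of 5364, 5129 and 5195, and differed by -0.08 with calcitriol and by -0.15 with calcidiol. A second probe gave -0.24 and -0.18. Both probes therefore put Hspa5 slightly under vehicle. A further Hspa5 probe lies 3 rows or columns from the array edge and carries an outlier flag on the calcidiol array. It had signals of 9296, 10648 and 24175 and was left out for that flag.

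Hsp90b1, the ER member of the HSP90 family, also called GRP94, had the largest difference of any member. Its signals were 18343 with vehicle, 6358 with calcitriol and 20823 with calcidiol. The calcitriol array alone was low, at -1.55 ± 0.20 against vehicle (2.92-fold lower), whereas calcidiol differed from vehicle by 0.08 ± 0.20. Against calcidiol, calcitriol was lower by 3.08-fold (-1.62 ± 0.20). Hsp90b1 has 1 probe on the array, at chr10:86153693-86153752 on the minus strand of mm9. No other probe of the gene was there to read.

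That probe is printed in row 4 of 384, 4 rows from the array edge. Of the genes measured at 4 to 6 rows or columns from the edge, 2.92% were at least 2-fold lower with calcitriol than with vehicle, and at 1 to 3 it was 4.38%, beside 1.33% at 21 or more. Against calcidiol the shares were 3.29%, 6.60% and 0.888% in the same order. With calcidiol against vehicle the larger shares at the edge were of higher genes. There 1.49%, 4.34% and 0.592% were at least 2-fold higher, and 0.115%, 0.271% and 0.115% at least 2-fold lower. The spots around Hsp90b1 were then looked at, a step chosen after its value was seen. Of 18 detected spots within 3 rows and columns, 6 (33.3%) were at least 1.5-fold lower with calcitriol than with vehicle, beside 5.55% of 27739 spots, and their values ran from -1.65 to 0.74 with a median of -0.11. Between calcitriol and calcidiol 8 of 18 (44.4%) were that much lower, beside 4.90%. With calcidiol against vehicle it was 0 of 19. The part of this array position in the Hsp90b1 value was not tested.

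The promoters of the branch carry a shared sequence that Hsp90b1 and Hspa5 have in common, which is why they are shown. RefSeq promoter windows of GRCm38.p6, from 250 bases before to 50 after a gene's start, were found for 37 of the 43 members, and not for Atf6, Hsp90aa1, Hsp90ab1, Hspa8, Hyou1 and Manf. The ER stress response element was searched on both strands as CCAAT, 9 bases of any kind, and CCACG. It was found in 7 of 16 ER branch genes, in 0 of 14 ATF4 branch genes, in 0 of 7 heat-shock genes and in 37 of 27025 genes in all (0.137%). The matches are printed below 5′ to 3′ on the strand of the gene, with the 2 ends of each element in capitals (CCAAT and CCACG, or ATTGG and CGTGG where the element lies on the opposite strand).
Hspa5, chr2:34772015-34772053, plus strand: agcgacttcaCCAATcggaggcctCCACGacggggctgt
Hsp90b1, chr10:86705523-86705666, minus strand: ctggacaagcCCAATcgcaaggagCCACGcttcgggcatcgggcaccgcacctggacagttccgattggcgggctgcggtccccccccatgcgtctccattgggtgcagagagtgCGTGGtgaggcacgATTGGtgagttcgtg
Calr, chr8:84847065-84847103, minus strand: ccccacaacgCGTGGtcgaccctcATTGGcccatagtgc
Canx, chr11:50325790-50325828, minus strand: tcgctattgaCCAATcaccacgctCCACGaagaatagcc
Pdia6, chr12:17266481-17266519, plus strand: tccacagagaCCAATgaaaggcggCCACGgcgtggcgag
Creld2, chr15:88819510-88819548, plus strand: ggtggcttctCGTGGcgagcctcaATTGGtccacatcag
Dnajc3, chr14:118937817-118937855, plus strand: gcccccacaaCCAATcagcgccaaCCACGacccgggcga
Hsp90b1 holds 2 such elements and each of the others 1. The other genes with the element did not share the low value of Hsp90b1. They stood between -0.13 for Creld2 and 0.24 for Calr with calcitriol, and between -0.20 for Pdia6 and 0.06 for Calr with calcidiol. All 7 genes with it, Hsp90b1 included, had medians of -0.08 and -0.10. The 9 branch genes whose windows lack the element had medians of -0.04 and -0.05. A match is a description of the letters and not a measured binding site.

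The lectin chaperones, which hold glycoproteins while they fold, stood on either side of vehicle. Calr had signals of 8677, 10393 and 9742, and at 0.24 with calcitriol and 0.06 with calcidiol it was the highest of the branch with calcitriol. Its probe lies 2 rows or columns from the array edge. Canx had signals of 17390, 17065 and 17522, and differences of -0.04 and -0.10. Of the disulfide isomerases, which form and shuffle cysteine bonds, Pdia6 had signals of 21255, 23554 and 19960. It was 0.13 above vehicle with calcitriol and -0.20 with calcidiol, which made it the highest of the branch between the compounds, at 0.33. After normexp these values were -0.10 with calcitriol and -0.03 between the compounds, so its direction and rank depend on that setting. Its probe lies 6 rows or columns from the edge. Pdia4 gave signals of 1115, 1108 and 1046, with differences of -0.03 and -0.20, so its calcitriol value equals vehicle within the error.

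Of the partners of BiP, Dnajb9, Dnajc3 and Dnajb11 lay within the scanner error of vehicle by their brightest probes, and Sdf2l1 and Hyou1 lay beyond it with calcidiol. Dnajb9, a DNAJ co-chaperone and a well known target of XBP1, had signals of 406, 462 and 485, with differences of 0.17 and 0.15. A second, dim Dnajb9 probe, with signals of 28.4, 32.7 and 23.5, gave 0.19 with calcitriol but -0.38 with calcidiol. The probes of Dnajb9 thus disagree on calcidiol, where the lowest signal well above background on the array was 17.85. Dnajc3, a co-chaperone that also restrains PERK, had signals of 927, 882 and 883 and differences of -0.09 and -0.18. Dnajb11 had signals of 2738, 2743 and 3034, the highest of them with calcidiol, 0.04 above vehicle once the arrays were scaled. Sdf2l1, which works with Dnajb11, had signals of 1360, 1314 and 1218. It was the third lowest of the branch with calcidiol, at -0.27, against -0.07 with calcitriol. Hyou1, the nucleotide exchange factor of BiP, had signals of 135.4, 125.5 and 107.3, and at -0.44 ± 0.21 it was the lowest of the branch with calcidiol, 1.36-fold. With calcitriol it stood at -0.13 by this probe. Its next 2 probes, the last of them dim, gave -0.42 and -0.66 with calcitriol and -0.18 and -0.12 with calcidiol. All 3 probes put Hyou1 under vehicle with both compounds, but they disagree on which compound gave the lower value.

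ER-associated degradation carries misfolded protein out of the ER to the proteasome. Edem1, a lectin that directs glycoproteins to it, had signals of 1494, 1246 and 1188, and differences of -0.28 with calcitriol and -0.44 with calcidiol. It was the third lowest of the branch with calcitriol and the second lowest with calcidiol, and a second probe gave -0.07 and -0.08. The direction was shared by both probes and the size was not. Sel1l, the adaptor of the ubiquitin ligase of the pathway, had signals of 3056, 2705 and 3232, differences of -0.19 and -0.03, and by a second probe 0.16 and -0.05. Herpud1, a membrane protein of the same complex, had signals of 3142, 3101 and 2936 and differences of -0.04 and -0.20. Its second probe, 6 rows or columns from the edge, gave -0.51 and -0.07. Creld2 and Manf, which are induced in ER stress and can be secreted, stayed close to vehicle. Creld2 had signals of 16124, 14956 and 17662, with differences of -0.13 and 0.03. Manf had signals of 5636, 5860 and 5647, with differences of 0.04 and -0.10.

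**Figure D2:**
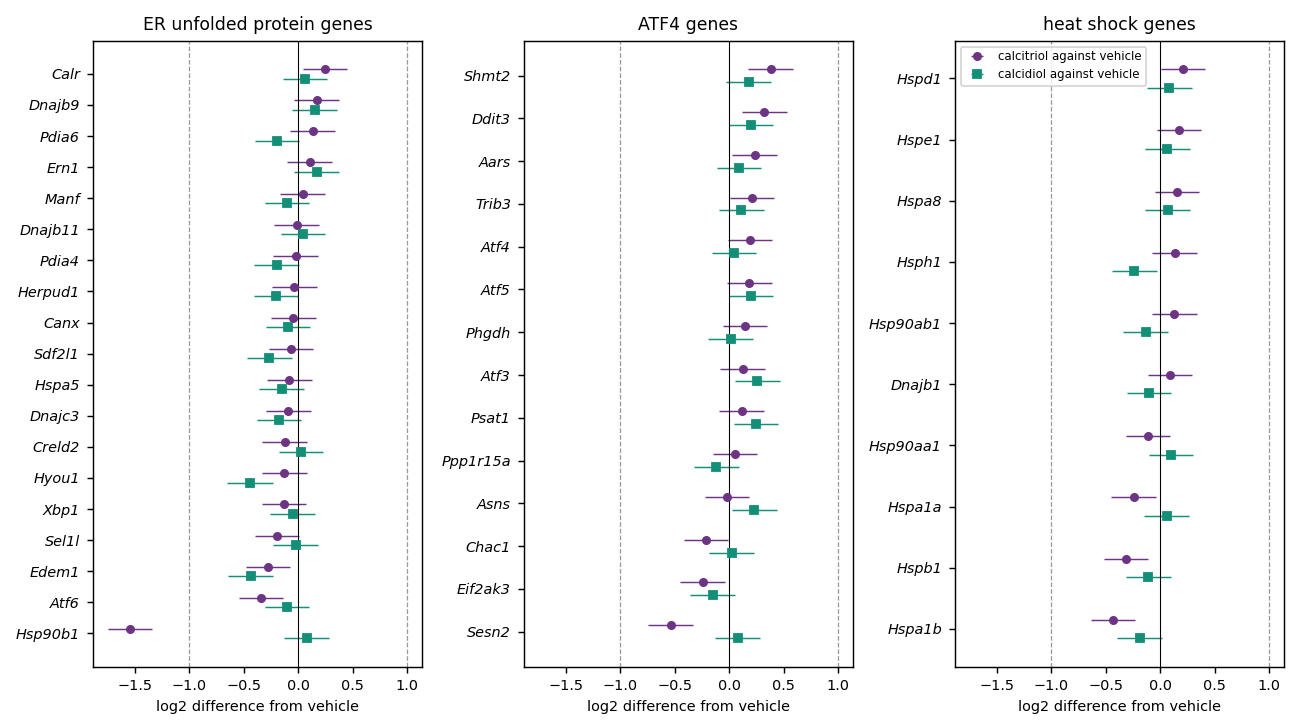
Log2 difference of each member from vehicle with calcitriol (circles) and calcidiol (squares), in 1 panel for each branch, sorted by the calcitriol value; bars are the scanner's technical error, not a spread between cultures, and dashed lines mark 2-fold. Hsp90b1 with calcitriol, at -1.55, is the only point beyond a dashed line, and most bars reach 0.

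The ATF4 branch leaned the other way from the ER branch. Its 14 genes had a median difference of 0.13 with calcitriol, where all genes had 0.01, and 10 of 14 were above 0, beside 52% of all genes. With calcidiol the median was 0.10, where all genes had -0.0049, and 12 of 14 were above 0, beside 48.7%. Both comparisons share the vehicle array, and neither shift could be tested with 1 array per group. None of the 14 probes lies within the outermost 6 rows or columns.

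Eif2ak3, the kinase PERK at the head of the branch, had signals of 815, 696 and 789 with vehicle, calcitriol and calcidiol. Its differences were -0.24 and -0.15, and it was the lowest of the branch with calcidiol and second lowest with calcitriol. A second, dim probe gave 0.29 and 0.23, so its direction is not settled by its probes. Atf4 had signals of 33956, 39175 and 37594, differences of 0.19 and 0.04, and by a second probe 0.21 and 0.13. Both probes stood slightly above vehicle, and the messenger RNA says nothing of how much of it was translated. Ddit3, the factor CHOP, which acts in prolonged stress, had signals of 393, 498 and 486. It differed by 0.32 (1.25-fold) with calcitriol and 0.20 with calcidiol, and a second probe gave 0.20 and 0.15. Vehicle was the lowest of the 3 arrays for both Ddit3 probes.

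The other regulators of the branch also stood near vehicle. Atf3, an early stress factor, had signals of 517, 570 and 666, and at 0.26 it was the highest of the branch with calcidiol, against 0.12 with calcitriol. Atf5, whose translation is controlled like that of ATF4, had signals of 5365, 6162 and 6616 and differences of 0.18 and 0.20. Trib3, a pseudokinase that dampens ATF4 activity, had signals of 1630, 1908 and 1894 and differences of 0.21 and 0.11. For all 3 of these genes, vehicle had the lowest signal. Ppp1r15a, the phosphatase subunit GADD34 that reverses the action of PERK, had signals of 2189, 2294 and 2169. It differed by 0.05 and -0.12.

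Among the genes of amino acid and one-carbon metabolism, Shmt2, the mitochondrial enzyme that takes a carbon unit from serine, had signals of 1487, 1955 and 1809. At 0.38 (1.30-fold) it was the highest member of all branches with calcitriol, and it stood at 0.18 with calcidiol. A second, dim Shmt2 probe, with signals of 22.2, 23.7 and 28.7, gave 0.07 and 0.26. Phgdh and Psat1 encode successive enzymes of serine synthesis. Phgdh had signals of 17261, 19281 and 18740, and differences of 0.14 and 0.01. Psat1 had signals of 5343, 5847 and 6802, and differences of 0.11 and 0.24, the second highest of the branch with calcidiol. Asns, asparagine synthetase and a standard ATF4 target, had signals of 5396, 5371 and 6805. Only the calcidiol value stood above the scanner error, at 0.23 against -0.02 with calcitriol, and a second probe 3 rows or columns from the edge gave 0.32 and -0.03 in that order. Aars, which charges the transfer RNA of alanine, had signals of 6267, 7447 and 7168. It differed by 0.23 and 0.09, whereas a second, dim probe gave -0.41 and -0.34.

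Sesn2, a leucine sensor that restrains the growth kinase complex mTORC1, had signals of 460 with vehicle, 321 with calcitriol and 522 with calcidiol. The calcitriol array was the low one, at -0.54 ± 0.20 (1.45-fold lower) against vehicle, and calcidiol stood at 0.08 ± 0.20. Between the compounds the difference was -0.61 ± 0.20 (1.53-fold lower). It is the second largest difference of any member in both comparisons with calcitriol. Its 1 probe, at chr4:132048858-132048917 on the minus strand of mm9, lies 47 rows or columns from the edge. Chac1, which degrades glutathione and is driven by ATF4, had signals of 3048, 2662 and 3330, with differences of -0.21 and 0.02. Sesn2, Eif2ak3 and Chac1 were the 3 lowest of the branch with calcitriol.

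The ATF4 composite element was searched as TGATGNAA on both strands. It was in the promoter windows of 5 of 14 ATF4 branch genes (Aars, Asns, Atf3, Chac1 and Trib3), in 1 of 16 ER branch genes (Herpud1), in 0 of 7 heat-shock genes and in 4.51% of all genes. Asns, Atf3 and Chac1 are shown because genes that share the element stood on both sides of vehicle with calcitriol. The letters of the element are in capitals, as TTgCATCA where it lies on the opposite strand.
Asns, chr6:7693210-7693247, minus strand: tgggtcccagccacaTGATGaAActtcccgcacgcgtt
Atf3, chr1:191183421-191183458, minus strand: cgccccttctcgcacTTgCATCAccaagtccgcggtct
Chac1, chr2:119351034-119351071, plus strand: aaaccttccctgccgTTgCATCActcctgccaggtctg
The 5 genes with the element had a median difference of 0.12 with calcitriol, and the 9 without it 0.14. The 5 ran from -0.21 for Chac1 to 0.23 for Aars, whose second, dim probe gave -0.41. With calcidiol the medians were 0.11 and 0.08. Between the compounds they were -0.13 and 0.12, on opposite sides of 0. None of these differences between genes with and without the letters was tested.

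The heat-shock branch had no common direction. The median of its 10 genes was 0.11 with calcitriol, with 4 of 10 below 0, beside 48% of all genes. With calcidiol it was -0.02, with 5 of 10 below 0, beside 51.3%. All 10 lay within 1.5-fold of vehicle with both compounds. Of all genes, 3.58% were at least 1.5-fold higher and 5.87% lower with calcitriol, and 2.92% and 1.3% with calcidiol. Beyond 1 scanner error of vehicle lay 4 of the 10 with calcitriol and 1 with calcidiol, beside 42.8% and 28.8% of all genes. Between the compounds 6 of the 10 lay beyond it, beside 40.3%.

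The inducible HSP70 genes, whose messenger RNAs are among the first to rise in heat shock, were the low end of the branch with calcitriol. Hspa1b had signals of 504, 377 and 476, and differences of -0.44 (1.35-fold lower) and -0.19. Hspa1a had signals of 216, 185 and 242, and differences of -0.24 ± 0.21 and 0.06 ± 0.21. The 2 genes are near-identical copies, so their probes may share signal and their values are uncertain as separate genes. Hspb1, a small heat-shock protein that binds unfolding clients, had signals of 26763, 21769 and 26700, with differences of -0.31 and -0.11. Hspb1 and both HSP70 genes had their lowest signal on the calcitriol array. Hsp90aa1, the inducible cytosolic HSP90, had signals of 6580, 6160 and 7585, with differences of -0.11 and 0.10. A second Hsp90aa1 probe gave -0.25 and -0.10.

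The 6 genes above vehicle with calcitriol were the mitochondrial chaperones, the constitutive Hspa8 and Hsp90ab1, and also Hsph1 and Dnajb1. Hspd1 and Hspe1 encode the chaperonin of the mitochondrial matrix and its lid. Hspd1 had signals of 11687, 13635 and 13319, and differences of 0.21 and 0.08, and a second probe gave 0.42 and 0.18. Hspe1 had signals of 8255, 9394 and 9282, and differences of 0.17 and 0.06. Its other probes gave 0.33 and 0.23 with calcitriol and 0.08 and 0.53 with calcidiol. All these probes stood above vehicle, but the sizes differed between probes. By their brightest probes Hspd1 and Hspe1 were the highest and second highest of the branch with calcitriol. Hspa8, the constitutive HSP70, had signals of 16155, 18156 and 18196 and differences of 0.15 and 0.07, and its other 3 probes gave 0.23, 0.22 and 0.33 with calcitriol and -0.16, 0.12 and 0.07 with calcidiol. All 4 Hspa8 probes therefore stood above vehicle with calcitriol, by up to 0.33, whereas with calcidiol they lay on both sides of it. Hsp90ab1, the constitutive HSP90, had signals of 40468, 44779 and 39626, and differences of 0.13 and -0.14, from a probe 5 rows or columns from the edge. Hsph1, an exchange factor of HSP70, had signals of 3054, 3382 and 2788. It differed by 0.13 and by -0.24, the lowest of the branch with calcidiol. Dnajb1, the HSP40 partner of HSP70, had signals of 9843, 10593 and 9850, with differences of 0.09 and -0.11.

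The heat shock element was searched on both strands as the blocks GAA, TTC and GAA, with any 2 bases between neighbouring blocks. It was found in 3 of 7 heat-shock genes (Hspd1, Hspe1 and Hsph1), in 0 genes of the other branches and in 0.662% of all genes. Hspd1 and Hspe1 lie head to head and share 1 stretch, printed with the repeated blocks in capitals. It is shown here once from each strand because both genes had nearly the same values by their brightest probes.
Hspd1, chr1:55088044-55088091, minus strand: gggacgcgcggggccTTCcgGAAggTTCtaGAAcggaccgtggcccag
Hspe1, chr1:55088044-55088091, plus strand: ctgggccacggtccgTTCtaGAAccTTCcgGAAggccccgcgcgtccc
The 3 genes with the element stood between 0.13 and 0.21 with calcitriol. The 4 without a match, Hspa1a, Hspa1b, Hspb1 and Dnajb1, stood between -0.44 and 0.09. Only exact blocks inside the promoter window were counted, so these 4 are not shown to lack a looser or more distant element. With calcidiol the 3 stood between -0.24 and 0.08 and the 4 between -0.19 and 0.06. With calcitriol the gap between the groups rests on the brightest Hsph1 probe, since a second Hsph1 probe gave -0.07, under the 0.09 of Dnajb1.

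**Figure D3:**
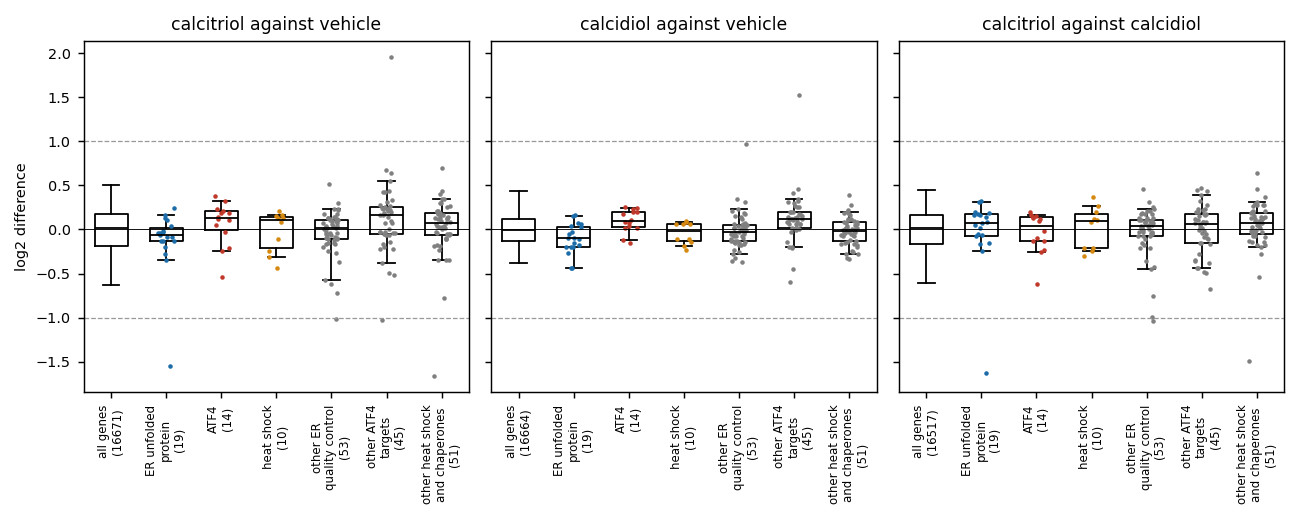
Log2 differences in the 3 comparisons for all genes, for the 3 branches (coloured points) and for 3 lists of related genes (grey points); boxes give the median and quartiles, whiskers the 5th to 95th percentile, numbers in brackets the genes measured, and dashed lines 2-fold. The medians of all lists lie between -0.10 and 0.16, and single genes rather than whole lists pass the dashed lines.

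The direct comparison sets calcitriol against calcidiol at the same dose and time, 1 pair of compounds that differ by the hydroxyl group that Cyp27b1 adds. Its 3 branch medians were 0.07 for the ER branch, 0.04 for the ATF4 branch and 0.10 for the heat-shock branch, where all genes had 0.02. With centring on the array median they were higher by 0.20, as was the median of all genes. The ER branch had Hsp90b1 (-1.62), Atf6 (-0.24) and Sel1l (-0.17) at its low end and Pdia6 (0.33), Hyou1 (0.31) and Sdf2l1 (0.20) at its high end. In the ATF4 branch Sesn2 (-0.61), Asns (-0.25) and Chac1 (-0.23) were lowest, and Shmt2 (0.20), Ppp1r15a (0.17) and Atf4 (0.15) highest. In the heat-shock branch Hspa1a (-0.30), Hspa1b (-0.25) and Hsp90aa1 (-0.21) were lowest, and Hsph1 (0.37), Hsp90ab1 (0.27) and Dnajb1 (0.19) highest. Apart from Hsp90b1 and Sesn2, the compounds gave member levels within 1.5-fold of each other. With 1 array each no interval can be set on such a difference between cultures, and the compounds are not shown to act alike on these genes.

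Other genes of the same pathways gave the surroundings of the members. Of 55 further genes of ER quality control on the array, 53 were measured, with medians of 0.01 with calcitriol, -0.03 with calcidiol and 0.04 between the compounds. Ero1l, the oxidase that supplies disulfide isomerases, had signals of 5686, 2836 and 6004, and differed from vehicle by -1.02 ± 0.20 with calcitriol and by -0.03 ± 0.20 with calcidiol. It was the only gene of this list at least 2-fold lower with calcitriol, and its probe lies 55 rows or columns from the edge. Across the settings tried its calcitriol difference ran from -1.08 to -0.91, so it did not always reach 2-fold. Hspa13, a microsomal HSP70, was at least 2-fold lower between the compounds (-1.04), from a probe 1 row or column from the edge. With calcitriol Hspa13 (-0.73) and Kdelr3 (-0.62) were next lowest, and Tmem33 (0.51), Spcs3 (0.30) and Srp19 (0.23) were highest. With calcidiol, Sec61a1, a translocon subunit whose probe lies 4 rows or columns from the edge, was highest at 0.97, followed by Tmem33 (0.34) and Hspa13 (0.31), and Sil1 (-0.37), Fkbp14 (-0.35) and Vimp (-0.32) were lowest. Between the compounds Hspa13, Ero1l (-0.99) and Sec61a1 (-0.75) were lowest, and Vimp (0.45), Srp19 (0.31) and Kdelr2 (0.25) were highest.

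Of 46 further ATF4 targets and genes of eIF2α control on the array, 45 were measured. Their medians were 0.16 with calcitriol, 0.12 with calcidiol and 0.06 between the compounds. With calcidiol 8 of 45 (17.8%) were below 0, beside 51.3% of all genes, and with calcitriol 17 of 45 (37.8%), beside 48%. Stc2, a secreted glycoprotein, had signals of 16.6, 65.3 and 51.4, which is 1.96 ± 0.32 above vehicle with calcitriol and 1.52 ± 0.33 with calcidiol. Its vehicle signal is close to 13.4, the lowest signal well above background on that array, and its differences ran from 0.76 to 2.07 and from 0.52 to 1.53 over the settings tried. Fgf21, a hormone of amino acid shortage, had signals of 108, 53.6 and 77.1, with differences of -1.03 ± 0.22 and -0.59 ± 0.22. Its calcitriol difference ran from -1.03 to -0.53 over the settings tried.

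Stc2 and Fgf21 thus stood on opposite sides of vehicle. With calcitriol Slc7a11 (-0.52) and Aldh1l2 (-0.49) were next lowest and Sesn1 (0.67) and Tars (0.64) next highest. With calcidiol Fgf21, Pck2 (-0.45) and Sesn3 (-0.21) were lowest and Tars (0.46) and Cth (0.41) next highest. Between the compounds Slc7a11 (-0.67), Pycr1 (-0.49) and Aldh1l2 (-0.48) were lowest and Sesn1 (0.47), Slc1a5 (0.44) and Stc2 (0.44) highest. Sesn1, a sestrin like Sesn2, stood above vehicle with calcitriol while Sesn2 stood below it.

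Of 54 further heat-shock factor and chaperone genes on the array, 51 were measured, with medians of 0.07, -0.02 and 0.07 in the same order. Serpinh1, the collagen chaperone of the ER, also called HSP47, had signals of 10764, 3443 and 10335. The calcitriol array was low, at -1.66 ± 0.20 against vehicle and at -1.50 ± 0.20 against calcidiol, and calcidiol stood at -0.16 ± 0.20. Its probe lies 12 rows or columns from the edge, and its calcitriol difference ran from -1.72 to -1.55 over the settings tried. Fibroblast markers moved in the same direction. Of 4 of them, Col1a1 and Dcn were well above background on all arrays and Col1a2 and Pdgfra on none, and their summed signal was 412 with vehicle, 141 with calcitriol and 250 with calcidiol. Markers of other cells also differed from vehicle with calcitriol. Kdr of endothelium (-0.84) and Aqp1 of the proximal tubule (-0.67) stood below it, and Lrp2 of the proximal tubule (1.39) above. The part of any of these markers in the Serpinh1 value was not tested. With calcitriol Hspa12a (-0.78, 4 rows or columns from the edge) and Hspb2 (-0.35) were next lowest and Bag2 (0.70), Dnajb4 (0.44) and Cct6a (0.40) highest. With calcidiol Ahsa1 (-0.34), Hsf4 (-0.32) and Hspb2 (-0.28) were lowest and Bag2 (0.39), Dnaja4 (0.27) and Dnajb6 (0.22) highest. Between the compounds Hspa12a (-0.54) and Hspb6 (-0.28) followed Serpinh1 at the low end, and Ahsa1 (0.64), a helper of HSP90, Cct3 (0.46) and Stip1 (0.36) were highest. Hsf1 itself had signals of 1973, 1920 and 1848.

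Distance from the array edge was examined for all members. Of the 43 probes, 4 (9.30%) lay within the outermost 6 rows or columns, beside 9.87% of all genes, and the median distance was 28 rows or columns, beside 33. They were Calr at 2, Hsp90b1 at 4, Hsp90ab1 at 5 and Pdia6 at 6, so the ER branch had 3 and the ATF4 branch 0. Without them the ER branch median was -0.07 with calcitriol, -0.10 with calcidiol and 0.06 between the compounds over 16 genes. The branch's slight shift below vehicle was the same without the outer spots, and Hsp90b1 was the only outer member beyond 1.5-fold.

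**Figure D4:**
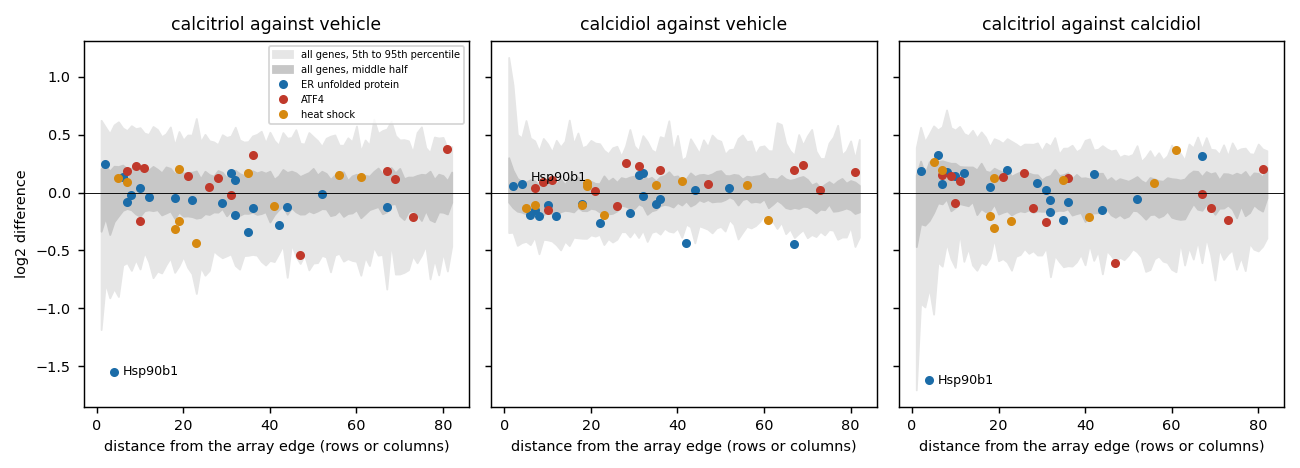
Log2 difference against the distance of the probe from the nearest array edge (rows or columns) in the 3 comparisons, with members coloured by branch; the grey bands give the middle 50% and the 5th to 95th percentile of all genes at that distance. The bands widen downward at the outermost spots where calcitriol is compared. Hsp90b1, at 4, falls below the 5th percentile band in those comparisons (-1.55 and -1.62) but lies at 0.08 with calcidiol. With calcidiol against vehicle, 4.34% of genes at 1 to 3 were at least 2-fold higher, beside 0.592% at 21 or more.

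A second detected probe was there for 23 members. With calcitriol it had the same sign as the brightest probe in 18 of 23 (78.3%), beside 67.9% of 6042 genes, with a median gap of 0.16 between the probes. With calcidiol it was 15 of 23 (65.2%), beside 58.8%, and between the compounds 14 of 23 (60.9%), beside 60.8%. The gap between probes of 1 gene, 0.16 at the median with calcitriol, is close to the median size of the member differences, 0.14. Probe pairs parted most for Aars with calcitriol, by 0.64, for Dnajb9 with calcidiol, by 0.53, and for Herpud1 between the compounds, by 0.61. The second probes of Aars and Dnajb9 are dim.

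**Figure D5:**
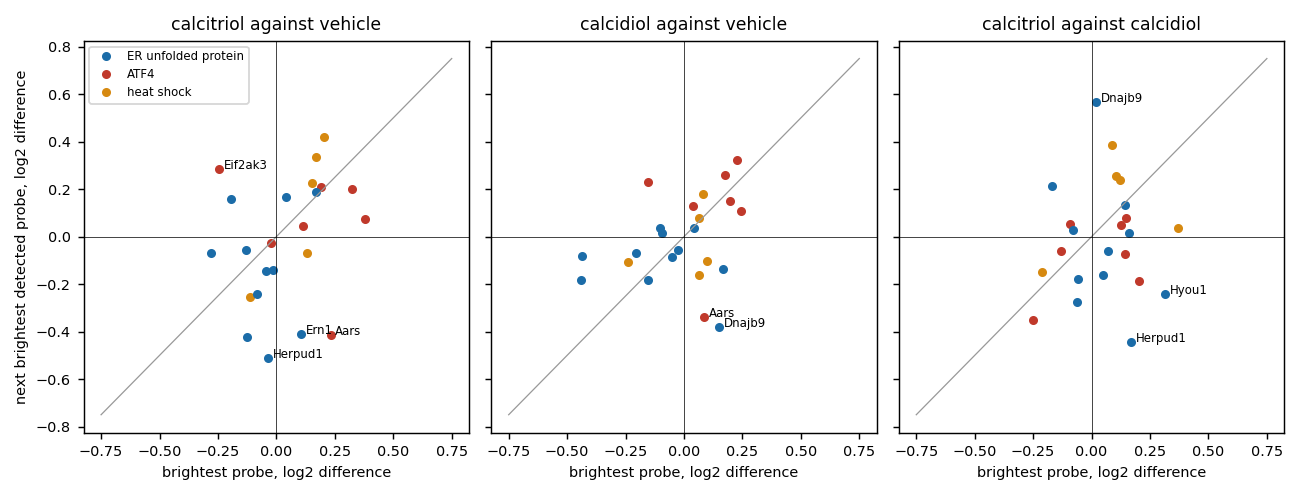
Log2 difference of the next brightest detected probe against that of the brightest probe for the 23 members with more than 1 detected probe, in the 3 comparisons, coloured by branch; the grey line marks equal values, and the genes whose probes lie farthest apart are named. Points scatter around the line with a median gap of 0.16 with calcitriol, and 18 of 23 share the sign of the brightest probe there.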

How the data were processed

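Agilent mouse arrays with 1 colour, Cy3, measured the RNA of the 3 cultures. The deposited scanner files hold linear spot intensity. Background was subtracted by Feature Extraction 10.7.1.1 and probes carry mm9 positions, per the file headers, while 9.5.1.1 is the version in the submitters' processing notes. The deposited value table also holds linear intensity by its match to the scanner signals. Its columns share a log2 median of 3.71, the sources used here do not name its normalisation, and it served as an alternative.

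The 62976 spots of an array included 59305 that were not controls, for 56605 probes. Probes with an outlier flag on any array were left out (1489), and 0 spots were saturated. Processed signals were log2-transformed, the 75th percentile of each array (a signal of 247, 250 and 266 with vehicle, calcitriol and calcidiol) was subtracted, and a difference was taken where both arrays had the probe well above background. The ± values are technical errors from the deposited signal error, in which the headers set a multiplicative error of 10%. They leave out the spread between cultures, and the number of arrays limits the precision. With 1 array in each group there was no test. Counting was tested on simulated data with known changes.

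Members and gene lists were chosen with earlier results of these data known. All members are named. Related lists are given by counts, medians, genes at least 2-fold apart and the 3 highest and 3 lowest. Alternatives were other scalings, normexp with an offset of 50, an offset of 32, other filters, flags, probes and thresholds, leaving out the outermost 6 rows and columns, and the value table. Promoter coordinates (GRCm38.p6) and probe coordinates (mm9) are of different builds. The tools were Python 3.11.15, numpy 2.4.6, pandas 2.3.3, matplotlib 3.10.9, R 4.3.3 and, for normexp, limma 3.58.1.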

Additional observations from a re-analysis of the deposited data

How the results depend on the processing

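Over the 11 alternatives run, the 43 members gave 1346 values. Of these, 1298 moved by less than the scanner error and 48 by more. That error, 0.20 for most members, is larger than their median difference with calcitriol, 0.14, so a value could change sign without counting as moved. A change of sign was counted only for values at least 2-fold apart, which Hsp90b1 alone had, and it kept its sign. Smaller values did change sign, among them Ern1, Eif2ak3 and Aars with calcitriol. All members were well above background, so the looser detection rule could not move them. The branch medians of the ER, ATF4 and heat-shock genes ran from -0.14 to 0.05, 0.05 to 0.25 and 0.02 to 0.23 with calcitriol, from -0.19 to -0.08, 0.01 to 0.15 and -0.11 to 0.06 with calcidiol, and from -0.06 to 0.27, -0.06 to 0.25 and 0.08 to 0.30 between the compounds. The sign of the median therefore depended on the setting for the ER branch with calcitriol, the heat-shock branch with calcidiol, and the ER and ATF4 branches between the compounds. The 1 member at least 2-fold lower with calcitriol, Hsp90b1, became 0 with the second brightest probe, without the outermost rows and columns and at 3-fold, in the first 2 cases because its only probe is left out. Between the compounds the count of 1 lower became 0 in those first 2 cases, and 2 at 1.5-fold (Sesn2) and with outlier spots kept (Hspa5). Keeping outlier spots also gave 1 member, Hspa5, at least 2-fold higher with calcidiol, at 1.27 from the spot near the edge, with 0.18 for calcitriol and -1.09 between the compounds. Hsp90b1 ran from -1.65 to -1.43 with calcitriol, and after normexp it was 0.34 with calcidiol and -1.99 between the compounds.

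When arrays were centred on their medians, the median difference of all genes shifted by 0.11, -0.09 and 0.20 in the 3 comparisons. The split of genes at least 2-fold higher and lower moved with it, from 168 and 262 to 229 and 181 with calcitriol, from 143 and 24 to 110 and 40 with calcidiol, and from 77 and 226 to 152 and 123 between the compounds. With calcitriol against vehicle these counts were 93 and 106 after normexp, 110 and 131 with the offset, 356 and 612 when detection on 1 array sufficed, 98 and 140 without the dimmest genes, 60 and 75 with the second brightest probe, 596 and 979 at 1.5-fold and 68 and 45 at 3-fold. With calcidiol they were 78 and 4, 76 and 8, 449 and 229, 78 and 5, 44 and 6, 486 and 216, and 40 and 3 in that order, and between the compounds 33 and 129, 48 and 109, 225 and 619, 34 and 134, 24 and 72, 378 and 888, and 23 and 53. Without the outermost rows and columns they were 149 and 215, 104 and 21, and 73 and 160 in the 3 comparisons. No paired analysis was possible because each group had 1 array. Low signal over background limits the values of dim genes of the related lists, among them Stc2, Slc7a11, Hspa12a and Hsf4. The scanner error was 0.33 for Hspa12a with calcitriol and 0.29 for Hsf4 with calcidiol. Every member was well above background.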
